A study of Mus musculus with 12 samples.

Results

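The comparison described here is chronic restraint against handling in the B6 strain. It comprised the 6 of the 12 libraries of the series that were made from C57BL/6JmsSlc (B6) mice. Of these, 3 came from mice given chronic restraint stress (CRS; animals 12, 13 and 14) and 3 from control mice (animals 2, 3 and 9). CRS mice were held in polyethylene restrainers in the home cage for 6 h a day on 21 days, and control mice were handled without restraint. All mice were inbred, without any transgene or deletion in the labels, and 9 to 10 weeks old. Tissue of the medial prefrontal cortex (mPFC) was taken with a 1.5 mm punch once behavioural testing had ended. The interval between the last restraint session, the behavioural tests and the punch is not given in the sources used here, nor are the sex of the mice and the hour of sampling. The other 6 libraries, from BALB/cCrSlc (BALB/c) mice treated the same way (3 control and 3 CRS), share the estimate of spread in the fit behind each B6 p-value and serve to test where the B6 effect differs. Expression is in TPM (transcript abundance on a fixed total per library), a level corrected for transcript length, summed over the rows of a gene name. A gene was tested if it reached 1 TPM in at least 3 of the 6 B6 libraries, which held for 15487 of 55678 names. Because TPM keeps no depth, the read number per library is unknown and counting error cannot be given. The numbers in the sample titles were read as animals. Should libraries share an animal, the p-values would measure only the spread between samples.

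The mPFC takes part in the control of the stress response. Restraint activates the hypothalamic-pituitary-adrenal axis, and the glucocorticoids it releases bind the receptors encoded by Nr3c1 and Nr3c2, which act on genes such as Fkbp5, Tsc22d3 and Sgk1. Neuronal firing and calcium entry induce immediate early genes within minutes, partly through the factor CREB and the kinase cascade that ends in ERK. These genes encode transcription factors (Fos, the Egr and Nr4a families, Npas4), synaptic effectors (Arc, Homer1) and inhibitors of the same cascade (the Dusp phosphatases).

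Between 15275 and 15542 genes reached 1 TPM in a B6 library. Mitochondrially encoded genes made up 17.4% to 22.0% of TPM and the neuronal noncoding RNA Bc1 8.68% to 13.4%. The median correlation across genes was 0.972 within controls, 0.976 within CRS and 0.975 between the groups. Markers of cortical excitatory neurons, astrocytes, oligodendrocytes and interneurons were present in every library. The vesicular glutamate transporter gene Slc17a7, a marker of cortical excitatory neurons, was at 427, 735 and 1074 TPM in controls 2, 3 and 9 and at 390.4, 545 and 854 TPM in CRS 12, 13 and 14. Libraries within a group differed in their markers of striatal medium spiny neurons, the principal cells of the striatum. The summed TPM of 23 such markers was 4131, 769 and 409 in controls 2, 3 and 9 and 3393, 2589 and 1564 in CRS 12, 13 and 14. Control 2 was thus the highest of the 6 libraries and controls 3 and 9 the lowest. Control 2 also held the most RNA of blood cell markers (summed TPM 137, against 26.7 to 46.6 in the other 5). Along the first principal component of the 6 libraries, which held 41.0% of the variance, control 9 (-47.9) and control 2 (24.4) formed the extremes, and CRS libraries lay between -4.58 and 22.5.

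No gene passed the test of CRS against control in B6. With limma and Benjamini-Hochberg adjustment over all tested genes, 0 of 15487 were called at 0.05 (0%). The unadjusted p-value was below 0.05 for 760 genes (4.91%). Of these, 448 were higher after CRS (2.89% of tested genes) and 312 lower (2.01%). The groups did not overlap, that is, all libraries of a group lay above all of the other, for 1283 genes (8.28%): 723 higher (4.67%) and 560 lower (3.62%). Differences of at least 1 on the log2 scale were seen for 117 higher genes, 39 of them without overlap, and for 67 lower genes, 25 of them without overlap. The smallest p-value was that of Fabp7. A lone gene would have needed an unadjusted limma p-value of 3.23e-06 to be called, which at the median standard error of 0.17 corresponds to a log2 difference of 1.37. Single libraries bore on the count: 16 genes were called without control 2, 1 without control 9 and 2 without CRS 13.

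**Figure D1:**
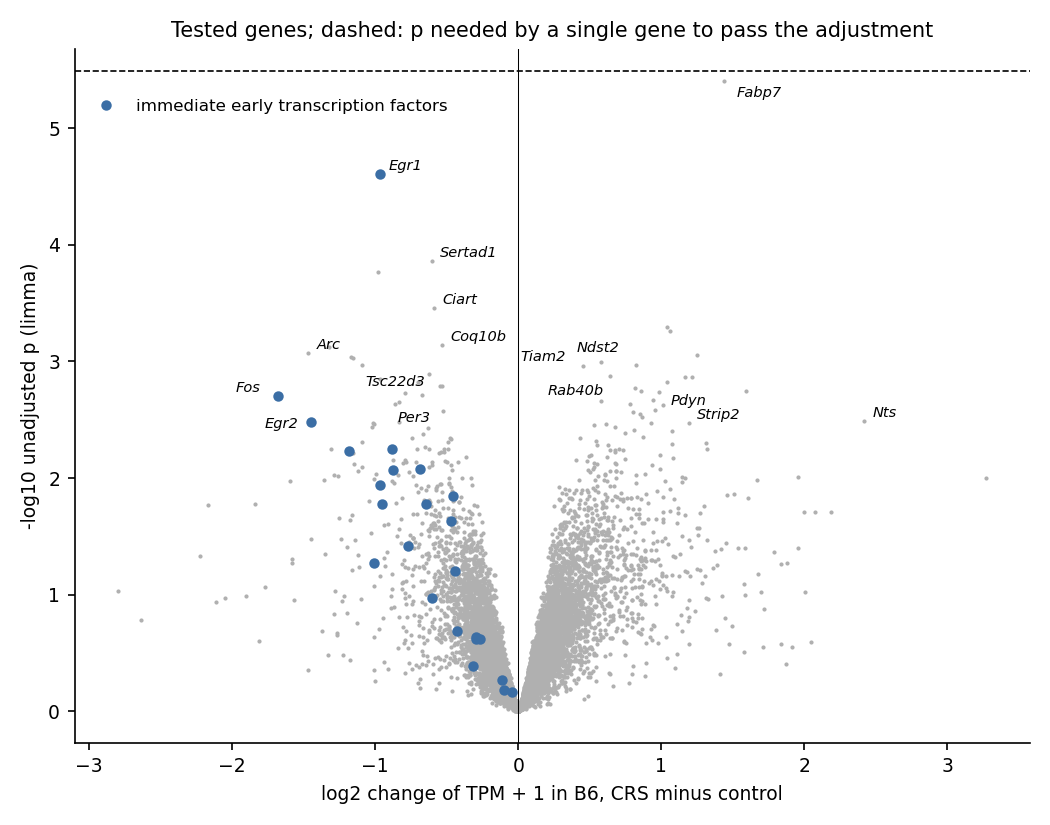
Log2 difference (CRS minus control, log2 of TPM + 1) on the x axis and -log10 of the unadjusted limma p-value on the y axis for the 15487 genes tested in B6. Blue points are the 24 tested immediate early transcription factors, which all lie left of 0, and Fabp7 is the point nearest to the dashed line, the p-value that a lone gene would need to be called.

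Fabp7 encodes the brain fatty acid binding protein, which carries polyunsaturated fatty acids in radial glia, astrocytes and oligodendrocyte precursors. In GENCODE M21 the gene lies at chr10:57784881-57788450, plus strand (GRCm38). It was at 35.5, 30.3 and 19.5 TPM in controls 2, 3 and 9 and at 69.8, 74.01 and 87.00 TPM in CRS 12, 13 and 14. Each CRS library was thus well above the highest control, and the CRS mean was 2.71 times the control mean. The log2 difference was 1.44 (SE 0.18, 95% confidence interval 1.04 to 1.84), and the adjusted p-value of 0.0607 (limma) missed the threshold. It passed with a pseudocount of 5 TPM (adjusted p 0.0484), among genes with a mean of at least 5 TPM (adjusted p 0.0388), without control 2 (adjusted p 0.00843) and without control 9 (adjusted p 0.0305). Over the 9 alternatives that kept all libraries, the limma adjusted p ranged from 0.0388 to 0.943. Over the 6 fits that left out 1 library it ranged from 0.00843 to 0.246, and Fabp7 did not pass without control 3 or any CRS library. With the mean level of the striatal markers as a covariate the log2 difference of Fabp7 was 1.25. In BALB/c the log2 difference was 1.03, and the difference between strains had an unadjusted p of 0.135 (limma interaction).

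Other fatty acid binding proteins and radial glia genes were mostly above 0 by small amounts. Of 13 tested members of this list, which includes Fabp7, 12 had a log2 difference above 0. Of these, 3 had an unadjusted p-value under 0.05 and no overlap (Fabp7, Vim and Hes5, against 2.89% and 4.67% of tested genes, higher). The median was 0.13, against 0.0019 over all tested genes. Members above 0 numbered 8 without control 9 (median 0.07), 10 without CRS 14 and 12 without any other B6 library. At that p-value 2 were higher without control 9 and 2 without CRS 14. Shares of all tested genes, here and below, are those of the main fit, with all libraries and no covariate. List counts from other fits have no such share beside them. Vim, an intermediate filament gene of immature and reactive glia, was at 44.8, 44.6 and 18.5 TPM in controls and 59.3, 59.2 and 57.01 TPM after CRS. Control 9 was far below the other 2 controls for Vim, and the log2 difference was 0.79 (SE 0.28, limma adjusted p 0.994), or 0.42 with the striatal covariate. Hes5, a Notch target that keeps neural progenitors undifferentiated, was at 18.1, 15.7 and 11.6 TPM in controls and 19.4, 25.4 and 26.3 TPM after CRS (log2 difference 0.62, limma adjusted p 0.994). The groups were separate, with a narrow gap between control 2 and CRS 12. Fabp5, the epidermal family member, had a log2 difference of 0.13, and Fabp3, the heart-type member, one of -0.20. Fabp3 has a near-identical pseudogene and an exon overlap on the opposite strand, so its own level is uncertain.

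Mature astrocyte markers lay on both sides of 0. Of 20 tested markers, 11 were above 0 and 9 below, none without overlap, with a median of 0.03. The water channel gene Aqp4 was at 30.6, 31.9 and 24.9 TPM in controls and 29.6, 34.6 and 30.5 TPM after CRS. For the calcium-binding protein gene S100b the values were 87.02, 64.7 and 94.4 TPM and 60.9, 56.8 and 68.03 TPM (log2 difference -0.39, limma unadjusted p 0.0184), with CRS 14 above control 3. Gfap, an intermediate filament gene of astrocytes, had a log2 difference of 0.37, with control 9 (31.5 TPM) far below the other 5 libraries, and of -0.35 without that library. In bulk tissue, fewer cells of a type and less RNA per cell cannot be told apart.

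Immediate early transcription factors were lower after CRS across the list. All 24 tested members (of 25 listed) had a log2 difference below 0, as had 49.6% of all tested genes. The unadjusted p-value was under 0.05 for 13 of 24, all lower (against 2.01% of tested genes), and the groups did not overlap for 11, all lower (against 3.62%). Their median log2 difference was -0.63, and 0 passed the adjusted threshold. The members were chosen with earlier results of these data known, so the counts describe these libraries. The summed TPM of the 24 genes was 1029, 918 and 787 in controls 2, 3 and 9 and 535, 505 and 669.9 in CRS 12, 13 and 14. The groups did not overlap, and CRS 14 was the CRS library nearest to the controls. Leaving out any library left 23 or 24 members below 0, and 11 to 16 with an unadjusted p-value under 0.05. With the striatal markers as a covariate, 23 of 24 were below 0, the unadjusted p-value was below 0.05 for 11, and the median was -0.53.

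The promoters of these genes are shown because CREB is known to bind the cAMP response element (CRE) in many of them. Whether CREB had a part in their lower levels was not tested. The motif searched for is the CRE core, TGACG, on both strands (CGTCA when read on the other strand). It overlaps itself in the full palindrome TGACGTCA, where both strands hold a core. RefSeq windows of 300 bases (250 before to 50 after a start, GRCm38.p6) were found for 20 of the 24 tested members. The CRE core occurred in the windows of 15 of these 20 genes (75%), against 23% of all 27025 genes with a window; counted by window, it was 72.4% against 20.8% of 32851. The full palindrome occurred in 2 of 20 (Btg2 and Maff), against 2.03% of all genes. The CArG box, which binds serum response factor, occurred in 2 of 20 (Egr2 and Srf), against 1.81% of all genes. The genes with a window include genes not tested in these libraries, whereas the list members were all tested, so the 2 sets are unlike. A match is a string of letters and not evidence of binding. Sequence outside these windows, and members without a window, were not searched, so a missing match does not mean that a gene lacks the motif. The 250 bases before the start are given 5′ to 3′ on the gene's strand, with each CRE core in capitals, for Fos (chr12:85473640-85473889, plus strand), Npas4 (chr19:4989972-4990221, minus strand), Nr4a1 (chr15:101266596-101266845, plus strand), Nr4a3 (chr4:48045055-48045304, plus strand) and, as the phosphatase described further on, Dusp1 (chr17:26508473-26508722, minus strand).
Fos: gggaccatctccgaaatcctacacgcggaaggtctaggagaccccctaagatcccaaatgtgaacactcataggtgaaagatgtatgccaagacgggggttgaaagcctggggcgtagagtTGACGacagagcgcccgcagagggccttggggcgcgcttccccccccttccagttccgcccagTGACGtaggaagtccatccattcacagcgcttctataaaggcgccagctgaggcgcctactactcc
Npas4: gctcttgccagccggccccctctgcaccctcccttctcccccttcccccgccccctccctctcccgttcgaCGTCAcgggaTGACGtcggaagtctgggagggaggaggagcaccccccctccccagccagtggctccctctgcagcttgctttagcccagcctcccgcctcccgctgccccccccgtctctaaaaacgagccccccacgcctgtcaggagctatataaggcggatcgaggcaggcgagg
Nr4a1: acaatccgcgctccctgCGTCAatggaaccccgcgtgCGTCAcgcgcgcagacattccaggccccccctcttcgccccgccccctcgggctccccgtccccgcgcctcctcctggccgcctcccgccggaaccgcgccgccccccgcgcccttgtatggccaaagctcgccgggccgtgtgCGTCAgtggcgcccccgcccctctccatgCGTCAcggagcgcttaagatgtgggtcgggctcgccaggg
Nr4a3: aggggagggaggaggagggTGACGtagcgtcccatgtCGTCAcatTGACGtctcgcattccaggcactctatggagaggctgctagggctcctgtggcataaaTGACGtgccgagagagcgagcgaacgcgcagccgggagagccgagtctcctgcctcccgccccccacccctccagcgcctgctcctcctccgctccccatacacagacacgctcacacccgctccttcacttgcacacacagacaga
Dusp1: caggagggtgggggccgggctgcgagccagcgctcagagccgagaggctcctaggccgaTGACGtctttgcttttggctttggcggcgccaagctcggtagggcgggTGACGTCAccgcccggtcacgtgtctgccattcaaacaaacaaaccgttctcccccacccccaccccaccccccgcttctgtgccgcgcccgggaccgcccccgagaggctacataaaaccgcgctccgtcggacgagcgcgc
Fos and Npas4 hold 2 cores each in this stretch, and Nr4a1 and Nr4a3 hold 4 each. Dusp1 holds 3, of which 2 overlap in a full palindrome.

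Among the zinc finger factors of the Egr family, Egr1, which links synaptic activity to plasticity genes, had the lowest p-value of all lower genes. It was at 182, 139 and 161 TPM in controls 2, 3 and 9 and at 80.6, 70.3 and 94.8 TPM in CRS 12, 13 and 14. The highest CRS library was far below the lowest control, and the log2 difference was -0.96 (SE 0.15, 95% confidence interval -1.28 to -0.64, limma adjusted p 0.193). With median-of-ratios scaling it passed (adjusted p 0.0461); over the 9 alternatives with all libraries the limma adjusted p ranged from 0.0461 to 0.944. Egr2 was at 16.9, 10.1 and 4.67 TPM in controls and at 2.96, 2.13 and 3.44 TPM after CRS (log2 difference -1.45, SE 0.40, limma adjusted p 0.994). Its control values spread widely, with control 2 the highest and control 9 nearest to the CRS group. Egr3 was at 73.7, 68.05 and 87.3 TPM in controls and 57.8, 58.2 and 48.5 TPM after CRS, a smaller log2 difference of -0.47 without overlap. For Egr4 the difference was -0.77 and the groups overlapped.

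Of the AP-1 genes, whose products dimerise as Fos and Jun proteins, Fos showed the largest difference. Fos lies at chr12:85473890-85477273, plus strand (GRCm38) and was at 44.9, 57.2 and 24.7 TPM in controls and 11.5, 7.53 and 18.5 TPM after CRS. The CRS mean was 0.30 times the control mean; the log2 difference was -1.68 (SE 0.43, limma adjusted p 0.928), and the groups were separate by the gap between control 9 and CRS 14. Junb was at 133, 117 and 57.7 TPM in controls and 46.9, 41.1 and 61.1 TPM after CRS (log2 difference -0.96, limma unadjusted p 0.0115). CRS 14 was above control 9, so its groups overlapped. Fosb, whose splice form accumulates with repeated stimulation, had a log2 difference of -0.60 with overlapping groups. Jund, the constitutively expressed member, was at 137, 134 and 127 TPM in controls and 125, 119 and 144 TPM after CRS, a difference of -0.044. Junb and Jund have exons that overlap a gene on the opposite strand in M21, and the use of strand in counting is not given in the sources used here. The same holds for Hes5, Bdnf, Plk3, Gadd45a, Mt2, Nr3c2, Nr1d1, Dbp, Penk, Ppp1r1b, Six3, Cx3cr1, Tiam2, Vwa3a and Coq10b.

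Nr4a1, an orphan nuclear receptor induced by calcium and cAMP, was at 133, 89.2 and 64.2 TPM in controls 2, 3 and 9 and at 33.8, 32.1 and 57.7 TPM in CRS 12, 13 and 14. The groups were separate, narrowly so between control 9 and CRS 14 (log2 difference -1.18, SE 0.35, limma adjusted p 0.994). Its relative Nr4a3 was at 17.6, 20.2 and 10.6 TPM and 5.79, 7.79 and 11.1 TPM (log2 difference -0.89), with CRS 14 above control 9. Nr4a2 was at 9.65, 12.2 and 24.8 TPM and 4.43, 4.51 and 13.9 TPM, with CRS 14 above controls 2 and 3. Npas4, a factor induced by calcium entry in neurons, was at 14.9, 14.7 and 10.2 TPM in controls and 6.67, 6.11 and 7.296 TPM after CRS. Its 3 CRS libraries lay close together below all controls (log2 difference -0.88, SE 0.28, limma adjusted p 0.994). Klf10, Btg2, Ier2 and Ier5, further early response genes, had log2 differences of -0.69, -0.95, -0.65 and -0.45, each without overlap. Klf4 was also without overlap (-0.44, limma unadjusted p 0.0624).

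**Figure D2:**
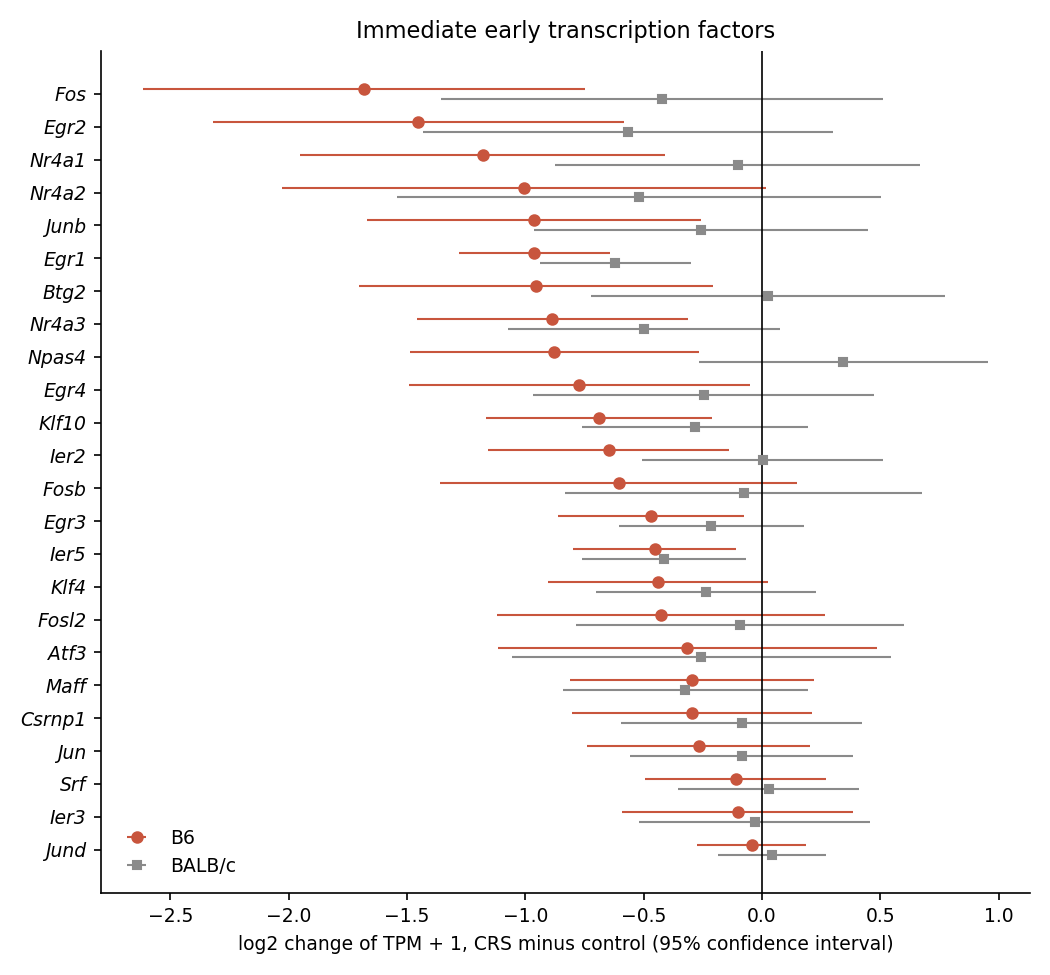
Log2 difference of TPM + 1 (CRS minus control) with its 95% confidence interval for the 24 tested immediate early transcription factors, in B6 (red circles) and BALB/c (grey squares). All 24 B6 points lie below 0 and 19 of the 24 BALB/c points do.

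The same genes in BALB/c had a median log2 difference of -0.22, with 19 of 24 below 0 and 2 lower without overlap (against 1.9% of tested genes). No difference between the strains passed for any tested gene (0 of 15487, 0%; smallest adjusted p 0.702, limma), and 394 genes (2.54%) had an unadjusted interaction p-value under 0.05. Among the 24, only Npas4 did (BALB/c log2 difference 0.34, unadjusted interaction p 0.009396, adjusted p 0.9999, limma). Its BALB/c libraries were at 22.3, 9.44 and 12.6 TPM in controls 5, 9 and 10 and at 12.3, 22.2 and 20.8 TPM in CRS 12, 13 and 15, with overlap.

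Activity-regulated effectors, the genes whose products act at synapses or are secreted, were mostly below 0. Of 19 tested, 14 were below 0 and 5 above; the unadjusted p-value was under 0.05 for 4 lower (Arc, Plk3, Trib1 and Ccn1) and 1 higher (Scg2), each without overlap, and the median was -0.24. Over all tested genes, 2.01% were lower and 2.89% higher at that p-value, and 3.62% and 4.67% without overlap. Without control 2, 8 of the effectors were lower and 2 higher at that p-value, and the share of all tested genes in that fit is not given. Arc encodes a capsid-like protein that drives removal of AMPA receptors from synapses, and lies at chr15:74669083-74672570, minus strand (GRCm38). It was at 127, 93.6 and 92.7 TPM in controls and 41.1, 26.5 and 45.1 TPM after CRS, so that every CRS library had less than the lowest control by a wide gap. The CRS mean of Arc was 0.36 times the control mean, with a log2 difference of -1.47 (SE 0.33, limma adjusted p 0.928). Plk3, a polo-like kinase, was at 10.4, 9.11 and 10.4 TPM and 7.05, 6.75 and 6.84 TPM, with little spread in either group (log2 difference -0.47). Trib1, a pseudokinase, differed by -0.78 and Ccn1, a secreted matrix protein, by -1.14; for Ccn1, CRS 14 (13.1 TPM) was close to the lowest control (14.97 TPM).

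Scg2 went the other way. It encodes secretogranin II, a dense-core vesicle protein, and was at 174, 146 and 148 TPM in controls and 218, 176 and 277 TPM after CRS. The groups were separated by the small gap between control 2 and CRS 13 (log2 difference 0.49, limma adjusted p 0.994). Bdnf, the neurotrophin, was at 7.101, 13.8 and 14.9 TPM in controls and 5.92, 8.94 and 9.96 TPM after CRS (log2 difference -0.45, limma unadjusted p 0.1201), with overlap. Homer1, a postsynaptic scaffold, was at 75.9, 68.7 and 117 TPM and 68.1, 64.2 and 70.5 TPM, where control 9 stood far above the rest. Nptx2, a secreted pentraxin that clusters AMPA receptors, differed by -0.24, again with control 9 highest, and by 0.12 without that library.

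**Figure D3:**
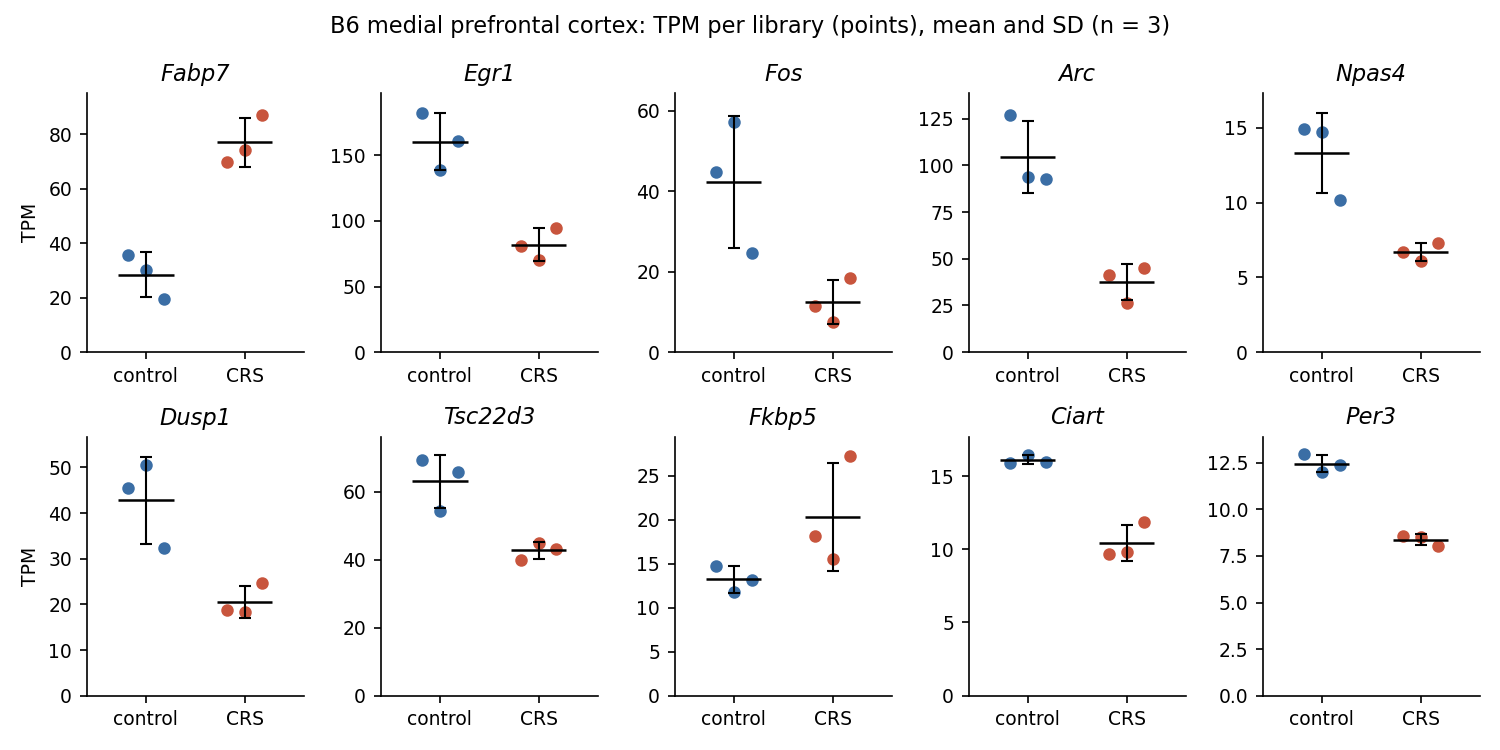
TPM per B6 library (points; blue, control; red, CRS) with the mean (bar) and SD (whisker, n = 3) for 10 genes named in the text. Fabp7 and Fkbp5 are higher in every CRS library than in any control, and the other 8 genes are lower in each.

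Feedback inhibitors of the kinase cascade and growth arrest genes were mostly below 0, and none passed the adjusted threshold. Of 14 tested, 12 were below 0; the unadjusted p-value was under 0.05 for 5 (Dusp1, Dusp6, Gadd45a, Gadd45b and Sertad1), all lower (against 2.01% of tested genes), 5 were lower without overlap (against 3.62%), and the list median was -0.28. That count of 5 was 3 with the striatal covariate, without CRS 12 or without CRS 13. Their summed TPM was 360.3, 352 and 348 in controls and 269, 274 and 301 after CRS, without overlap. Dusp1 encodes a phosphatase of p38, JNK and ERK that is induced by activity and by glucocorticoids. It was at 45.4, 50.6 and 32.3 TPM in controls 2, 3 and 9 and 18.8, 18.3 and 24.6 TPM in CRS 12, 13 and 14 (log2 difference -1.01, SE 0.28, limma adjusted p 0.994). The CRS values clustered below the lowest control, control 9. M21 places an exon of Ergic1 on the opposite strand of Dusp1, so reads of the pair may not be told apart.

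Sertad1, a regulator of cyclin-dependent kinase activity, had little spread within either group. Its levels were 12.7, 12.6 and 13.02 TPM in controls and 8.17, 7.24 and 8.799 TPM after CRS (log2 difference -0.60, SE 0.11, limma adjusted p 0.666). In BALB/c the difference was -0.084 (unadjusted interaction p 0.00594, adjusted p 0.9999, limma). Dusp6, a phosphatase specific for ERK, was at 35.1, 44.5 and 48.7 TPM and 23.2, 23.01 and 35.9 TPM, overlapping by CRS 14 and control 2 (log2 difference -0.64). Gadd45b, which promotes DNA demethylation at activity-dependent genes, was at 18.5, 18.2 and 16.3 TPM and 10.03, 11.8 and 14.5 TPM without overlap (log2 difference -0.52, against 0.30 in BALB/c; unadjusted interaction p 0.002695, adjusted p 0.9999, limma). Gadd45a was at 9.66, 13.2 and 12.1 TPM and 7.91, 8.001 and 7.31 TPM (log2 difference -0.53). Dusp14 was lower without overlap and with an unadjusted p of 0.0637 (limma).

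Genes induced by glucocorticoids lay on both sides of 0. Of 24 tested, 16 were below 0 and 8 above; an unadjusted p-value under 0.05 was reached by 2 higher (Fkbp5 and Mt2) and 1 lower (Tsc22d3), and 3 were higher and 2 lower without overlap, with a median of -0.15. For comparison, 2.89% of all tested genes were higher and 2.01% lower at that p-value. Without overlap, 4.67% of all tested genes were higher and 3.62% lower. The split was not stable: 0 were higher and 6 lower at that p-value with the striatal covariate, and 0 higher and 4 lower without control 9. Fkbp5 encodes a co-chaperone that lowers the hormone affinity of the glucocorticoid receptor and is itself a classical receptor target. It was at 14.8, 11.7 and 13.2 TPM in controls and 18.2, 15.5 and 27.2 TPM after CRS, with CRS 14 well above the rest and CRS 13 just above control 2 (log2 difference 0.55, SE 0.23, limma adjusted p 0.994). The metallothionein Mt2, which binds zinc and is induced by the same hormone, was at 391, 292 and 280.4 TPM and 523, 433 and 427 TPM (log2 difference 0.53), and Mt1 at 577, 476 and 471 TPM and 593, 598 and 586 TPM (log2 difference 0.23). Both metallothioneins were without overlap.

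Tsc22d3, which encodes the glucocorticoid-induced leucine zipper protein GILZ, was lower in the same libraries. Its levels were 69.2, 54.3 and 65.7 TPM in controls and 39.9, 44.9 and 43.2 TPM after CRS (log2 difference -0.55, SE 0.14, limma adjusted p 0.928), without overlap. Sgk1, a kinase that regulates ion channels, was at 125, 58.1 and 55.9 TPM and 38.3, 55.01 and 58.3 TPM, with control 2 far above the other 5 libraries (log2 difference -0.57, limma unadjusted p 0.101). Per1, a clock gene that also responds to the hormone and to CREB, differed by -0.46 with overlap. Errfi1, an inhibitor of EGF receptor signalling, was lower without overlap, with a log2 difference of -0.26 (limma unadjusted p 0.102). Fkbp5 and Tsc22d3 thus differed in opposite directions between the same 6 libraries, and neither passed the adjusted threshold.

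Of the hormone receptors, Nr3c1 (the glucocorticoid receptor) was at 31.7, 37.1 and 44.9 TPM in controls and 28.2, 29.7 and 31.8 TPM after CRS (log2 difference -0.32, limma unadjusted p 0.0368). The groups overlapped only in that CRS 14 was just above control 2. Nr3c2 (the mineralocorticoid receptor) was at 14.4, 13.3 and 9.101 TPM and 16.6, 14.6 and 18.6 TPM (log2 difference 0.42, limma unadjusted p 0.157), higher without overlap. Crh, the corticotropin-releasing hormone gene expressed in cortical interneurons, was at 2.33, 4.44 and 5.41 TPM and 2.85, 2.87 and 2.13 TPM (log2 difference -0.44), and its receptor gene Crhr1 at 4.803, 8.12 and 13.5 TPM and 4.83, 5.47 and 6.32 TPM (log2 difference -0.49). For both, control 9 was highest, and control 2 was within the CRS range for Crh and just below it for Crhr1.

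Over the 19 tested genes of the stress hormone and neuropeptide system the median was -0.005. An unadjusted p-value under 0.05 was reached by 3 higher genes (Pdyn, Nts and Tac1) and 1 lower gene (Nr3c1). Of all tested genes, 2.89% were higher and 2.01% lower at that p-value. The lower count was 4 without control 2. It was 0 without control 3, control 9 or CRS 13, and 0 with the B6 libraries fitted alone. Pdyn encodes prodynorphin, precursor of the ligands of the kappa opioid receptor. It was at 35.4, 19.5 and 14.9 TPM in controls and 51.8, 43.1 and 40.6 TPM after CRS, all above control 2 (log2 difference 1.01, SE 0.26, limma adjusted p 0.9301). Nts, the neurotensin gene, was at 4.32, 3.75 and 0 TPM and 33.7, 6.502 and 13.8 TPM, listed at 0 in control 9 and with a wide spread after CRS (log2 difference 2.42, SE 0.66, limma adjusted p 0.994). Tac1, the substance P precursor gene, was at 192, 62.7 and 27.6 TPM and 160.1, 156 and 165 TPM; control 2 exceeded every CRS library.

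Pdyn and Tac1 are also markers of striatal medium spiny neurons, whose sums are given above, and both were lowest in control 9. All 23 striatal markers tested had a log2 difference above 0, with a median of 1.16, although control 2 held the largest sum. Of the 23, 4 had an unadjusted p-value under 0.05 (Pdyn, Tac1, Six3 and Gpr6) and 1 (Pdyn) was without overlap. Over all tested genes, 2.89% were higher at that p-value and 4.67% were higher without overlap. The count of 4 was 1 when the B6 libraries were fitted alone and also without control 3, control 9 or CRS 12, and it was 2 without CRS 13. Without control 2 the count was 22, 3 of the 23 were called and the median was 1.99. In that fit 16 genes were called in all, and the share of all tested genes at that p-value is not given. Without control 9 the median was 0.39. Penk, the enkephalin gene of striatopallidal neurons, was at 1182, 156 and 48.4 TPM in controls and 1002, 672 and 368 TPM after CRS. Drd2, the D2 dopamine receptor gene of the same cells, was at 69.1, 10.2 and 1.09 TPM and 57.6, 42.3 and 20.95 TPM, and Ppp1r1b, which encodes DARPP-32, at 788, 139 and 103 TPM and 643, 497 and 253 TPM. In each, control 2 and CRS 12 stood highest and control 9 lowest. In BALB/c the list median was -0.22. With the striatal score as a covariate the B6 log2 difference was 0.70 for Pdyn and 1.66 for Nts. That score is the mean level of the tested striatal markers. Pdyn and Tac1 are among them, so part of their smaller difference in that fit is built in. Nts is not among them. The part of the striatal content of the punches in the higher levels of Pdyn, Nts and Tac1 was not otherwise tested.

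**Figure D4:**
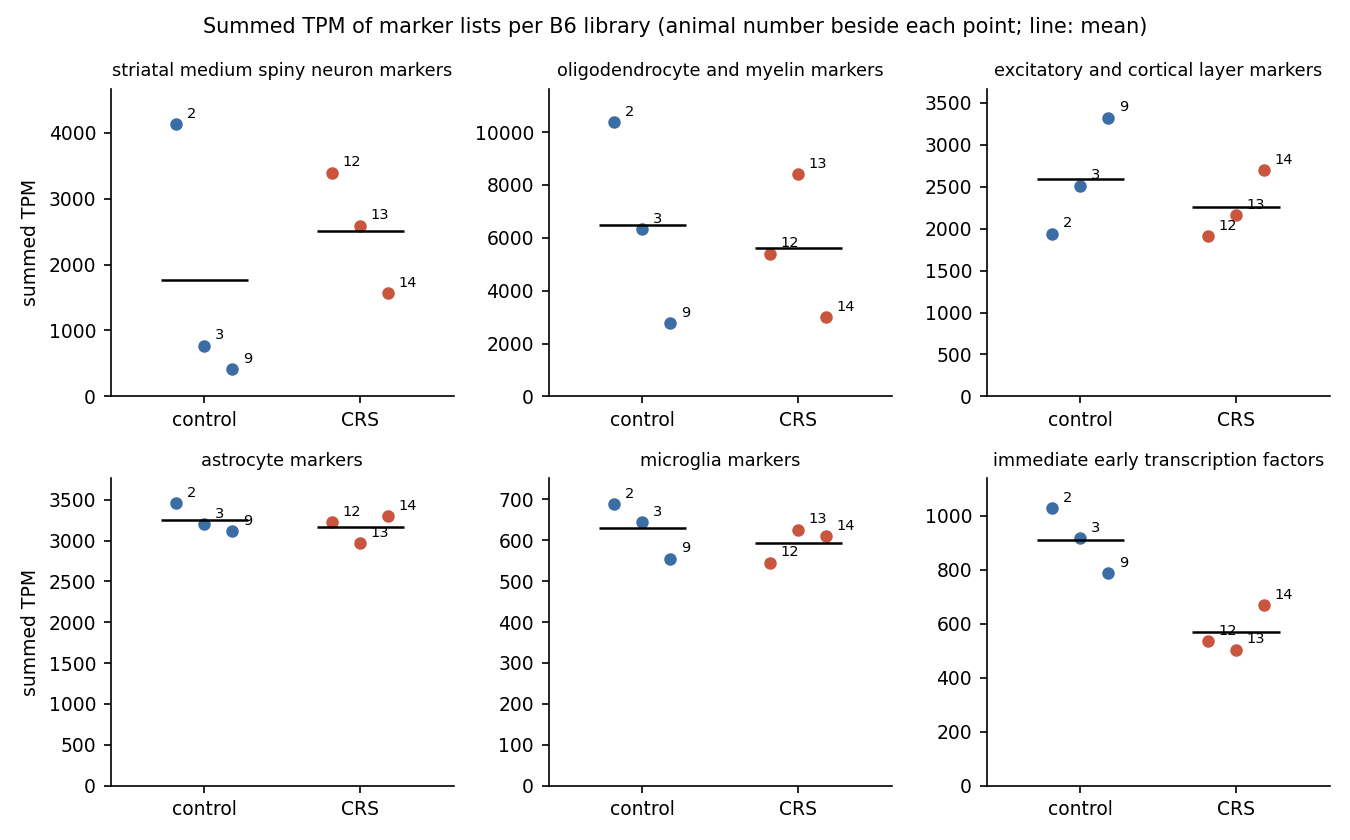
Summed TPM of 5 marker lists and of the immediate early transcription factors in each B6 library (blue, control; red, CRS; animal number beside each point; the bar is the mean). Striatal and myelin sums vary several-fold within a group, with control 2 the highest and control 9 the lowest, and of the 6 panels only that of the immediate early genes is separate between the groups.

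Myelin genes also varied widely within groups. The summed TPM of 18 oligodendrocyte markers was 10387, 6327 and 2761 in controls and 5402, 8411 and 2999 after CRS, and 17 of the 18 had a log2 difference below 0, none with an unadjusted p-value under 0.05 (median -0.13). This direction rested on single libraries: 0 of 18 were below 0 without control 2 (median 0.27) and 0 of 18 without CRS 14 (median 0.24). With the striatal covariate all 18 were below 0 (median -0.93), 6 with an unadjusted p-value under 0.05. Mbp, the myelin basic protein gene, spanned 5002, 3024 and 1287 TPM in controls and 2547, 4024 and 1448 TPM after CRS. The sum of the 27 excitatory neuron and cortical layer markers ran the other way within controls, at 1942, 2514 and 3324, and was 1915, 2160.1 and 2701 after CRS. Of these 27, 18 were below 0 (median -0.15). Rprm and Neurod6 were the 2 that were lower with an unadjusted p-value under 0.05 (against 2.01% of tested genes). With the striatal covariate 13 of the 27 were below 0 (median 0.02), and neither that fit nor the one without control 9 gave any with an unadjusted p-value under 0.05. Without control 2 there were 7 lower and 1 higher. Rprm, a marker of deep-layer neurons, was at 68.99, 75.6 and 148 TPM and 52.3, 58.3 and 45.2 TPM (log2 difference -0.82), the lowest 3 values being those of CRS. Neurod6, a factor of pyramidal neurons, was at 49.2, 89.6 and 101 TPM and 42.9, 66.6 and 44.9 TPM, with control 2 inside the CRS range.

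Interneuron markers gave a mixed picture. Of 24 tested, 14 were above 0 and 10 below, with a list median of 0.08. The unadjusted p-value was below 0.05 for 5, all higher (Gad1, Gad2, Ndnf, Sncg and Tac1), against 2.89% of tested genes. Only 1 of the 24 (Ndnf) was higher without overlap, against 4.67% of tested genes. None of the 24 had an unadjusted p-value under 0.05 with the striatal covariate or without control 9, and 3 did when the B6 libraries were fitted alone. Gad2, a GABA-synthesising enzyme, was at 76.8, 52.9 and 40.1 TPM in controls and 132, 68.5 and 90.9 TPM after CRS (log2 difference 0.77, or 0.47 with the striatal covariate), and Gad1 at 174, 138 and 138 TPM and 253, 161 and 213 TPM. Both enzymes are also made by striatal medium spiny neurons. Ndnf, a marker of neurogliaform cells, was at 6.002, 7.11 and 2.38 TPM and 9.29, 8.85 and 24.98 TPM, where CRS 14 alone was far above the rest. The main classes did not separate: Sst was at 517, 515 and 538 TPM and 519, 461 and 692 TPM, and Vip at 20.8, 39.1 and 32.1 TPM and 20.2, 35.7 and 28.8 TPM. Pvalb was at 14.3, 17.6 and 68.8 TPM and 16.6, 15.3 and 19.5 TPM; its log2 difference of -0.59 rested on control 9 and was 0.10 without it.

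Among the clock genes, Ciart and Per3 were lower in every CRS library than in any control. Of 19 tested, 12 were below 0 (median -0.11). An unadjusted p-value under 0.05 was reached by 2 lower (Ciart and Per3, against 2.01% of tested genes) and 1 higher (Npas2, against 2.89%). Without overlap, 5 were lower (Per3, Nr1d2, Hlf, Ciart and Nfil3, against 3.62% of tested genes) and 1 higher (Npas2, against 4.67%). Ciart, a repressor of the CLOCK and BMAL1 complex, lies at chr3:95878503-95882251, minus strand (GRCm38). It was at 15.9, 16.5 and 15.99 TPM in controls and 9.704, 9.79 and 11.8 TPM after CRS. The controls were within 1 TPM of each other, and all CRS libraries lay below them (log2 difference -0.59, SE 0.12, limma adjusted p 0.928). In BALB/c it was higher after CRS, at 10.6, 8.93 and 10.1 TPM in controls and 12.1, 14.2 and 13.04 TPM after CRS, also without overlap. The difference between the strains was 0.96 on the log2 scale (BALB/c minus B6; unadjusted p 9.63e-05, adjusted p 0.745, limma). M21 lists a near-identical copy of Ciart, Gm9176, with which reads can be shared, and a near-identical copy of Nr1d2.

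CLOCK and BMAL1 bind the E-box, CACGTG. Searched on both strands (the motif is its own reverse complement), it occurred in RefSeq windows of 5 of 17 matched clock genes (Bhlhe41, Ciart, Cry1, Per1 and Tef; 29.4%), against 8.09% of all genes with a window. The genes with a window again include genes not tested here. The 250 bases before the start of Ciart (chr3:95882229-95882478, minus strand) are shown, with its 3 E-boxes in capitals. Ciart was chosen because it had the lowest p-value of the clock genes.
Ciart: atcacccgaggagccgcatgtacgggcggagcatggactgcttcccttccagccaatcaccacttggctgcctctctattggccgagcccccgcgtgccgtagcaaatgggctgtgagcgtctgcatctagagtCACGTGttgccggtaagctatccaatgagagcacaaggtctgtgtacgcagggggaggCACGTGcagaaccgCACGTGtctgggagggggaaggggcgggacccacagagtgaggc
Per3, a period gene, has no E-box in its window but was the single clock gene with a D-box (TTATGTAA, found in 1.11% of all genes with a window), the motif of DBP, TEF and HLF. It was at 12.98, 12.04 and 12.4 TPM in controls and 8.57, 8.51 and 8.02 TPM after CRS (log2 difference -0.52, SE 0.14, limma adjusted p 0.994). Its groups were clearly separate, with little spread in either. Npas2, a paralog of Clock, was at 23.7, 17.03 and 21.5 TPM and 26.8, 25.5 and 24.9 TPM (log2 difference 0.31). Hlf, a D-box factor, was at 49.6, 50.1 and 62.4 TPM and 42.6, 45.2 and 37.3 TPM (log2 difference -0.36). Per2 (-0.21), Dbp (0.10) and Nr1d1 (0.25), which cycle strongly in most tissues, had log2 differences with overlapping groups. The hour of sampling, on which clock gene levels depend, is not given in the sources used here.

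The remaining genes named for the lowest p-values belong to no list. They were picked among genes without overlap and with a mean of at least 5 TPM, so their separation follows from that choice. Higher after CRS were Ndst2 (a heparan sulphate sulphotransferase), Tiam2 (an activator of Rac), Rab40b, Gm1604a, Strip2, Vwa3a and Zfp414. Ndst2 was at 5.66, 6.91 and 5.998 TPM in controls and 10.4, 9.75 and 9.05 TPM after CRS (log2 difference 0.58, limma adjusted p 0.928), and in BALB/c it was also separate (0.32). Tiam2 was at 53.6, 46.1 and 45.4 TPM and 66.2, 64.2 and 68.4 TPM (log2 difference 0.45), with narrow spread in both groups. Rab40b was at 32.7, 25.8 and 25.3 TPM and 42.8, 39.04 and 50.5 TPM (log2 difference 0.64). These 3 genes were evenly higher, with CRS means 1.37 to 1.58 times the control means. Vwa3a, Zfp414 and Gm1604a had log2 differences of 0.61, 0.43 and 0.95. Zfp414 and Gm1604a, like the microglial gene Itgam, share exon sequence with a gene on the same strand in M21, so their levels are uncertain.

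Strip2 was uneven: at 20.7, 7.35 and 5.56 TPM in controls and 24.5, 23.2 and 22.1 TPM after CRS, it was high in control 2 as the striatal markers were. Its log2 difference was 1.19 (limma adjusted p 0.994), 1.71 without control 2 (adjusted p 0.00611; range over the 6 libraries left out in turn, 0.00611 to 0.99997) and 0.66 with the striatal covariate. Lower after CRS were Coq10b and Rspo2. Coq10b, which encodes a coenzyme Q binding protein, was at 23.6, 20.7 and 19.9 TPM and 12.5, 16.2 and 14.8 TPM (log2 difference -0.53), and BALB/c was lower as well (-0.37). Rspo2, a secreted enhancer of Wnt signalling found in cortical excitatory neurons, was at 10.6, 17.5 and 19.3 TPM and 7.99, 10.5 and 6.46 TPM (log2 difference -0.83), with CRS 13 just below control 2.

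**Figure D5:**
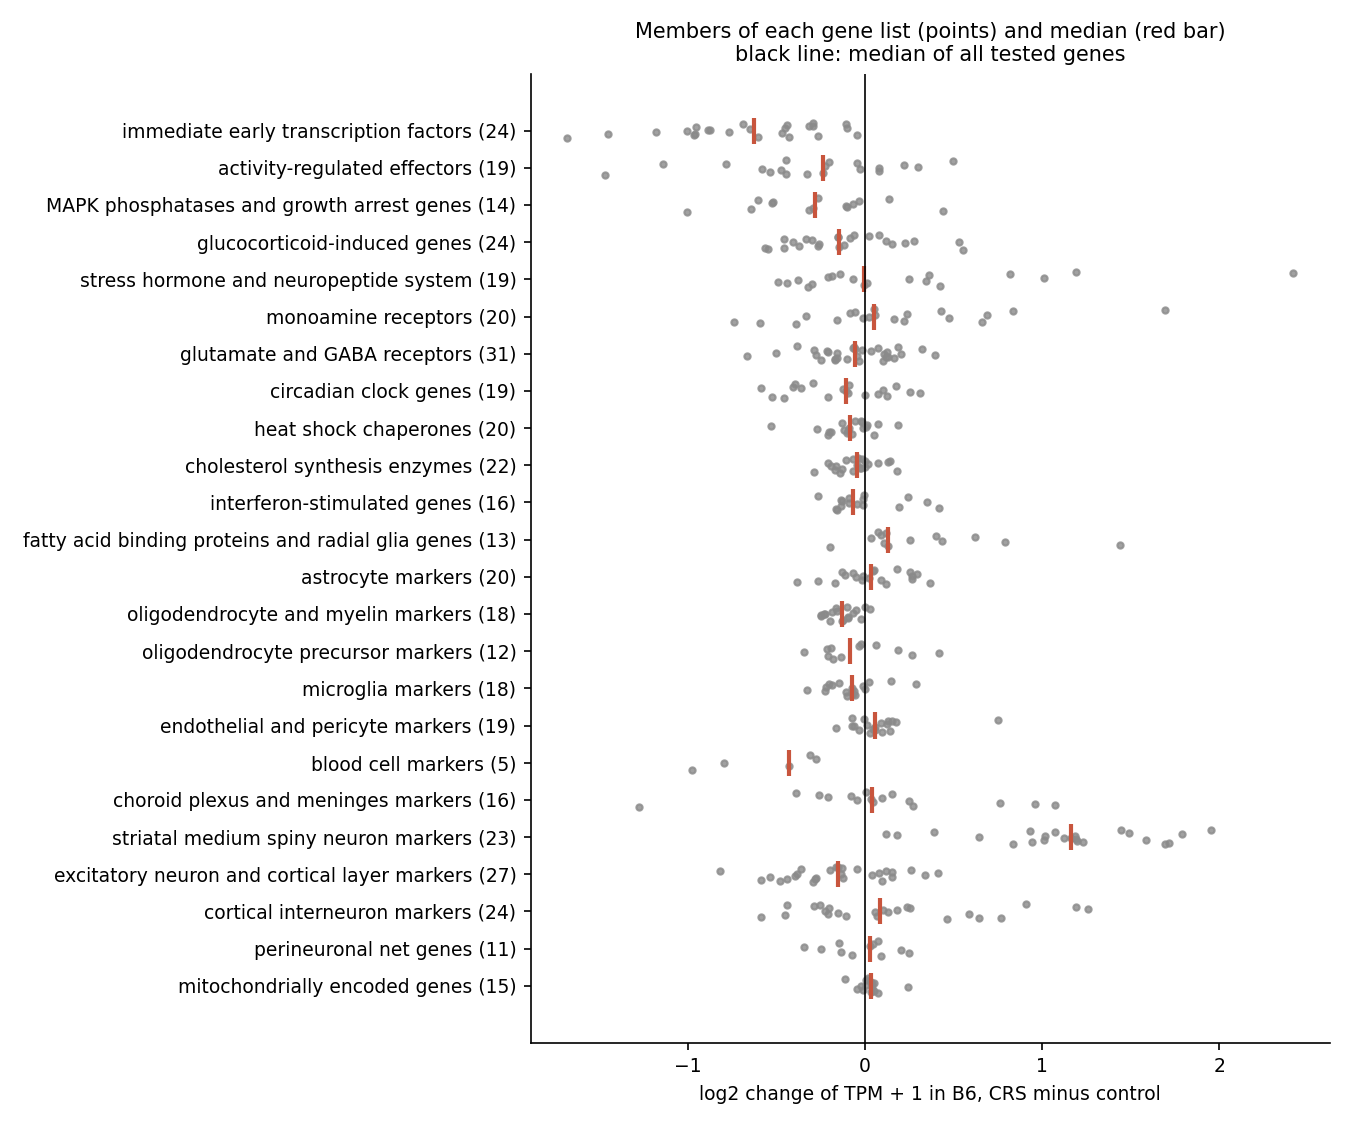
Log2 difference of TPM + 1 in B6 (CRS minus control) for each tested member (points) of the 24 gene lists, with the list median (red bar); the number tested is in parentheses and the black line marks the median of all tested genes (0.0019). The immediate early transcription factors all lie below 0 (median -0.63) and the striatal markers all above (median 1.16), while most other medians lie near 0.

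For the remaining cell types the list medians lay near 0. Of 18 microglia markers, 15 were below 0 (median -0.07), but 11 without control 2 (median -0.02) and 12 without CRS 12. An unadjusted p-value under 0.05 was reached by 1 (against 4.91% of tested genes). Lower without overlap were 3 (Aif1, Itgam and Gpr34, against 3.62%). Aif1, a microglial actin-binding protein gene, was at 12.3, 13.4 and 16.3 TPM in controls and 11.2, 11.3 and 10.2 TPM after CRS (log2 difference -0.33), while the receptor gene Cx3cr1 was at 26.8, 21.8 and 21.6 TPM and 19.7, 21.8 and 23.6 TPM. Among 19 endothelial and pericyte markers the median was 0.05, and none reached an unadjusted p-value of 0.05. Choroid plexus and meninges markers numbered 16 tested (median 0.04). Folr1, a folate receptor gene, was at 0.845, 0.503 and 0.8005 TPM in controls and 4.498, 2.14 and 1.698 TPM after CRS. All its controls were below 1 TPM, so it entered the test only through the CRS libraries, and its separation between the groups follows from that filter. Ttr, an abundant choroid plexus gene, was at 5.67, 33.2 and 55.1 TPM and 6.87, 17.9 and 5.01 TPM, with overlap.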

How the data were processed

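RNA of 12 mPFC punches was sequenced from stranded poly(A)-selected libraries as paired 150 bp reads, to about 6 Gb each, per the labels' protocols. The submitters' processing notes name cutadapt 2.9, Salmon and GRCm38; the Salmon version, annotation and use of strand are not given in the sources used here. The authors deposited TPM values (abundances corrected for transcript length and scaled to a total of 1000000 per library) in 1 table of 147902 rows, each with a gene name; the unit was read from the values, since every column has that total. Depth is unknown, and precision rests on the spread between libraries.

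Rows of a gene were added up. Genes reaching 1 TPM in 3 or more of the 6 B6 libraries were tested on log2(TPM + 1) with limma 3.58.1 (R 4.3.3; lmFit, contrasts.fit, eBayes with trend). All 12 libraries entered as 4 group means (8 residual degrees of freedom), with Benjamini-Hochberg adjustment over 15487 genes and a threshold of 0.05. Fold differences on this scale understate those of low genes. The test was tried on simulated data with independent noise for each gene. Those data lack the differences in marker content between libraries seen here, so nothing is drawn from that trial. With 3 against 3 libraries an exact permutation test cannot go below 0.1, so none was used. The named genes are the 10 of lowest p in each direction (mean at least 5 TPM, groups separate, symbols with an assigned name), up to 6 of lowest p per list, and anchor genes, of which 1 is not reported here. Members and lists were chosen with earlier results of these data known. GENCODE M21 gave positions and overlaps (exons on the opposite strand for 22 of 103 named genes), and RefSeq GRCm38.p6 the promoter windows. Alternatives were the libraries fitted, pseudocount (0.1 and 5 TPM), filter, scaling, a striatal covariate, the trend and each library left out.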

Additional observations from a re-analysis of the deposited data

How the results depend on the processing

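For the 103 named genes, 910 of 922 log2 differences kept their direction and their side of the threshold over 9 settings with all libraries. When leaving out each of the 6 B6 libraries, 598 of 618 did. No gene was called in the main fit, so keeping that side says little about stability. The sign turned for 9 of the 922 and 14 of the 618, and 3 and 6 passed the threshold. The count of genes called in B6 was 0 with the B6 libraries alone, a pseudocount of 0.1 TPM, no mitochondrial, Bc1 and ribosomal RNA genes, the striatal covariate, or no intensity trend. It was 1 with a pseudocount of 5 TPM (Fabp7), 1 at a mean of at least 5 TPM (Fabp7) and 1 with median-of-ratios scaling (Egr1). Without the filter on low values it was 7, and 2 for the difference between strains. Leaving out 1 library gave 0 to 16 (16 without control 2), and 0 for the difference between strains. With the striatal covariate the sign turned for Fabp3 (0.038), Gfap (-0.24), Nptx2 (0.067), Dbp (-0.11), Vip (0.16), Slc17a7 (0.17), Penk (-0.0035), Drd1 (-0.27) and Ppp1r1b (-0.19). Penk, Drd1 and Ppp1r1b are among the markers averaged in that covariate, so a shift of their values towards 0 is partly built in. Leaving out 1 library in turn, log2 differences crossed 0 for Mbp (-0.66 to 0.32), Cldn5 (-0.059 to 0.17), Vip (-0.35 to 0.11), Gfap (-0.35 to 0.79), Nptx2 (-0.45 to 0.12), Dbp (-0.13 to 0.31), Pvalb (-0.996 to 0.10), Slc17a7 (-0.65 to 0.016), Jund (-0.12 to 0.013) and Sst (-0.097 to 0.196). The cause was not tested. Where a library is left out, a group of 2 shares the spread of the others.

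No paired analysis was possible for CRS against control in B6 because those groups share no animal number. A replicate block over all 12 libraries leaves 1 residual degree of freedom and gave 515 calls for the difference between strains. The 3 numbers found in both strains belong to different mice, whose deviations correlated at -0.29, -0.035 and -0.048, so the numbers do not pair the libraries. TPM keeps no depth, so differences of low genes have no counting error.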

Other observations

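Of 31 tested glutamate and GABA receptor genes, 19 were below 0, none had an unadjusted p-value under 0.05 and none was without overlap (median -0.06). Of 20 monoamine receptor genes, 12 were above 0 (median 0.05), and Htr2c, a serotonin receptor gene, had an unadjusted p-value of 0.0348 (limma) with overlapping groups, 15.3, 12.2 and 11.3 TPM in controls and 22.8, 12.7 and 32.7 TPM after CRS. Among 20 heat shock chaperones, 15 were below 0 (median -0.08) and Hspa5, the chaperone of the endoplasmic reticulum, was lower without overlap, at 164, 184 and 189.8 TPM and 157, 151 and 158 TPM. Of 22 cholesterol synthesis genes 17 were below 0 (median -0.04), and of 16 interferon-stimulated genes 12 were (median -0.07). These splits were not stable. Members below 0 numbered 9 of the 22 cholesterol genes with the striatal covariate, without control 9 or without CRS 12, and 9 of the 31 glutamate and GABA receptor genes without control 9 (7 with the striatal covariate). With that covariate they numbered 10 of the 20 chaperones, 7 of the 16 interferon-stimulated genes and 12 of the 15 mitochondrially encoded genes (11 without CRS 13). Ifitm3, a membrane protein that restricts virus entry, was at 19.5, 26.8 and 14.7 TPM in controls and 28.2, 28.9 and 23.4 TPM after CRS (log2 difference 0.42, unadjusted p 0.0393, limma). Perineuronal net genes (11 tested, median 0.03), oligodendrocyte precursor markers (12, median -0.08), blood cell markers (5, all below 0, median -0.43, but 2 below 0 and a median of 0.07 without control 2) and mitochondrially encoded genes (15, median 0.03) had no member without overlap.

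The deposited rows are apparently transcripts, without an identifier. Fabp7, Homer1, Bdnf, Fos, Arc, Egr1, Sgk1, Tsc22d3 and Fkbp5 were looked at by row after their gene-level values were seen. Of 12 Homer1 rows, 7 had a mean of at least 1 TPM and 2 of these were lower after CRS without overlap. The more abundant of the pair was at 6.94, 7.04 and 5.79 TPM in controls 2, 3 and 9 and at 1.29, 1.38 and 4.99 TPM in CRS 12, 13 and 14, whereas the gene total overlapped. Of 6 Sgk1 rows with such a mean, 1 was higher without overlap (9.30, 6.13 and 7.14 TPM in controls, 10.4, 10.3 and 11.0 TPM after CRS). Another 2 were lower, the larger at 91.5, 43.1 and 38.7 TPM in controls and 22.1, 34.97 and 31.3 TPM after CRS. For Tsc22d3, 2 of 5 such rows were lower without overlap, the larger at 41.0, 28.2 and 39.2 TPM in controls and 22.4, 20.7 and 16.7 TPM after CRS. A further row of Tsc22d3, at 13.9, 15.4 and 18.8 TPM and 12.5, 16.1 and 22.7 TPM, overlapped. Both rows of Arc and both of Egr1 were lower without overlap, as were 2 of 3 such rows of Fos. Higher without overlap were 1 of 2 such rows of Fkbp5 and the 1 such row of Fabp7. All 4 such rows of Bdnf overlapped. The share of all deposited rows without overlap was not counted. Values of single rows depend on how reads were divided among similar transcripts, and they were not tested.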
